A study of Mus musculus with 4 samples.

Results

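Metallothioneins and the transporters and chaperones of zinc and copper were followed across 4 RNA sequencing libraries of a mouse podocyte line. The genes were chosen by symbol: every Slc30a and Slc39a gene, the metallothioneins Mt1, Mt2 and Mt3, the zinc sensor Mtf1, the copper pumps Atp7a and Atp7b, the copper channels Slc31a1 and Slc31a2, and the copper chaperones Atox1, Ccs and Cox17. This gave 35 of the 56393 genes in the table. The rule itself uses no measured value, but the set was put together with earlier results of these data known, so its values are a description and not independent support.

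Podocytes are the epithelial cells that cover the glomerular capillaries of the kidney. All libraries came from MPC, a conditionally immortalised line that multiplies in the presence of interferon-gamma and differentiates once it is withdrawn. The cultures had been grown at 33 °C (10% serum, interferon-gamma at 20 U/ml) and then kept for 7 days at 37 °C to differentiate. The 4 groups were sh-NC (control hairpin), sh-NC/HG (control hairpin with D-glucose at a final 40 mmol/L for 24 h), sh-JAML (a hairpin against Jaml) and sh-JAML/HG (that hairpin with the same glucose). Each group had 1 library, and the labels name 1 hairpin per target, no osmotic control and no glucose concentration for the cultures without added glucose. With no replicates, a difference between 2 libraries has no replicate check, and the intervals below cover counting error only. A larger RNA content per cell and a larger number of expressing cells cannot be told apart in such bulk libraries.

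Zinc is kept at low free levels in the cytosol. Proteins of the SLC39A (ZIP) family bring it into the cytosol and those of the SLC30A (ZnT) family move it out or into vesicles, while metallothioneins, small cysteine-rich proteins, bind it together with copper. The transcription factor MTF1 senses free zinc, binds metal response elements, and is known to activate Mt1, Mt2 and the exporter gene Slc30a1 and to repress the importer gene Slc39a10. Copper enters through CTR1 (Slc31a1) and is handed by ATOX1, CCS and COX17 to the copper ATPases, to superoxide dismutase and to cytochrome oxidase.

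Upstream sequence is shown for Mt1, Mt2 and Slc30a1, the members known as MTF1 targets that stood higher in both sh-JAML libraries. Each line gives the 250 bases before the RefSeq start on GRCm38.p6, the build also called mm10, on the plus strand: Mt1 at chr8:94178839-94179088, Mt2 at chr8:94172368-94172617 and Slc30a1 at chr1:191906531-191906780. Capitals mark the core of the metal response element, searched as TGCACNC and TGCGCNC on both strands.
Mt1: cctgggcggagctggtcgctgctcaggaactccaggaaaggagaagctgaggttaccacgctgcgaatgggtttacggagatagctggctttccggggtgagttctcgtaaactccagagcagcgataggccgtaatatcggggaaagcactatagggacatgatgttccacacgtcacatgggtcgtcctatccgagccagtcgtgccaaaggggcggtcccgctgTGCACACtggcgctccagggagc
Mt2: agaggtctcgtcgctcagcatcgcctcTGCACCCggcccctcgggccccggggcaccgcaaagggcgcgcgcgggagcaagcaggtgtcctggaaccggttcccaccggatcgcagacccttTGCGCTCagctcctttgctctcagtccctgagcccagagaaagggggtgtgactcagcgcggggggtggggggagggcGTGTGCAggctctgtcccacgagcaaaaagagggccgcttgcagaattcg
Slc30a1: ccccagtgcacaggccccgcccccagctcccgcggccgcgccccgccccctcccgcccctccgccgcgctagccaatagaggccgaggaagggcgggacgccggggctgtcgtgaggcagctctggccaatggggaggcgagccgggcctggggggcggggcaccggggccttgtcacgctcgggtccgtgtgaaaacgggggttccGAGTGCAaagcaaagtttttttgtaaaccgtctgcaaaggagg

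The Mt2 stretch held 3 cores, and those of Mt1 and Slc30a1 held 1 each. Among all 32851 RefSeq promoters, 21.4% had at least 1 core in the same 250 bases and 1.26% had at least 3. These starts lie ahead of other annotated starts of both metallothionein genes: Mt1 transcripts also begin at 94179211 and 94179241 and an Mt2 transcript at 94172860. The annotated leader of the principal transcript, the bases before the start codon, held 4 further cores in Mt1 (229 bases) and 3 in Mt2 (184 bases). Those of Mt1, from 94179091 to 94179187, all lie upstream of its 2 later starts. Those of Mt2, from 94172676 to 94172729, lie upstream of its later start. For transcripts from the later starts, the printed stretches thus leave out the nearest upstream bases. Leaders of other genes were not searched and no share over all genes was computed, so whether these leader counts are high cannot be told. The Mt2 leader starts at 94172664, so the bases between it and the printed stretch are in neither count. RefSeq windows of 300 bases, from 250 before to 50 after the start, were found for 29 of the 35 members. A core occurred in at least 1 window of 17 of these 29 members, where 28.2% of all genes with a window had one. Among members averaging 50 counts or more per library, 20 had a window and 10 of these had a core. Counted by window, it occurred in 18 of the members' 34, against 25.7% of all windows, and none occurred in the windows of Slc39a10 or Mtf1. The whole windows of Mt1, Mt2 and Slc30a1 held 3, 4 and 2 cores, and the Mt1 window overlaps its leader. A match is a run of letters and not a measured binding site.

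Of the 35 members, 24 averaged 50 counts or more per library and entered the comparisons. Levels are CPM, counts divided by library size, scaled with edgeR's TMM factors. The 14187 genes that passed the same minimum are the background for every share given. Libraries held between 79330461 and 94341975 counts. Jaml itself had a count of 0 in all 4 libraries, so its knockdown could not be measured. The podocyte gene Synpo stood between 172 and 247 CPM and Wt1 between 0.633 and 1.17 CPM, while Nphs1 had at most 35 counts. The sh-NC/HG library stood apart most: 938 genes lay at least 2-fold from the mean of the other libraries in it, against 312 to 340 in the rest.

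Mt1 and Mt2 were the members that differed most. Mt1, on chromosome 8 (94179082 to 94180327), stood at 439 CPM with sh-NC, 119 with sh-NC/HG, 699 with sh-JAML and 910 with sh-JAML/HG. Mt2, its neighbour (94172664 to 94173568), stood at 109, 41.1, 193 and 241 CPM in the same order, which is kept wherever 4 values follow each other. In both genes sh-NC/HG was the lowest library, sh-NC came next, and the 2 sh-JAML libraries were the highest.

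With the control hairpin, Mt1 was 3.68-fold lower in high glucose (95% counting interval 3.52 to 3.84) and Mt2 2.65-fold lower (2.46 to 2.87). With the Jaml hairpin both were slightly higher in high glucose: Mt1 1.30-fold (1.27 to 1.33) and Mt2 1.25-fold (1.20 to 1.30). The 2 glucose pairs share no library, and their log2 ratios differed by 2.26 for Mt1 and 1.73 for Mt2. A difference of at least 1 in either direction was seen in 10.1% of all genes.

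The hairpin comparison showed the same order from the other side. Without added glucose, Mt1 was 1.59-fold higher in sh-JAML against sh-NC (1.55 to 1.64) and Mt2 1.77-fold higher (1.68 to 1.86). With glucose, Mt1 was 7.63-fold higher in sh-JAML/HG than in sh-NC/HG (7.33 to 7.94) and Mt2 5.86-fold higher (5.47 to 6.28). Mt1 ranked number 37 from the top of 14187 genes in that last pair. The hairpin pairs and the glucose pairs are made of the same 4 libraries, so they restate 1 set of values.

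**Figure D1:**
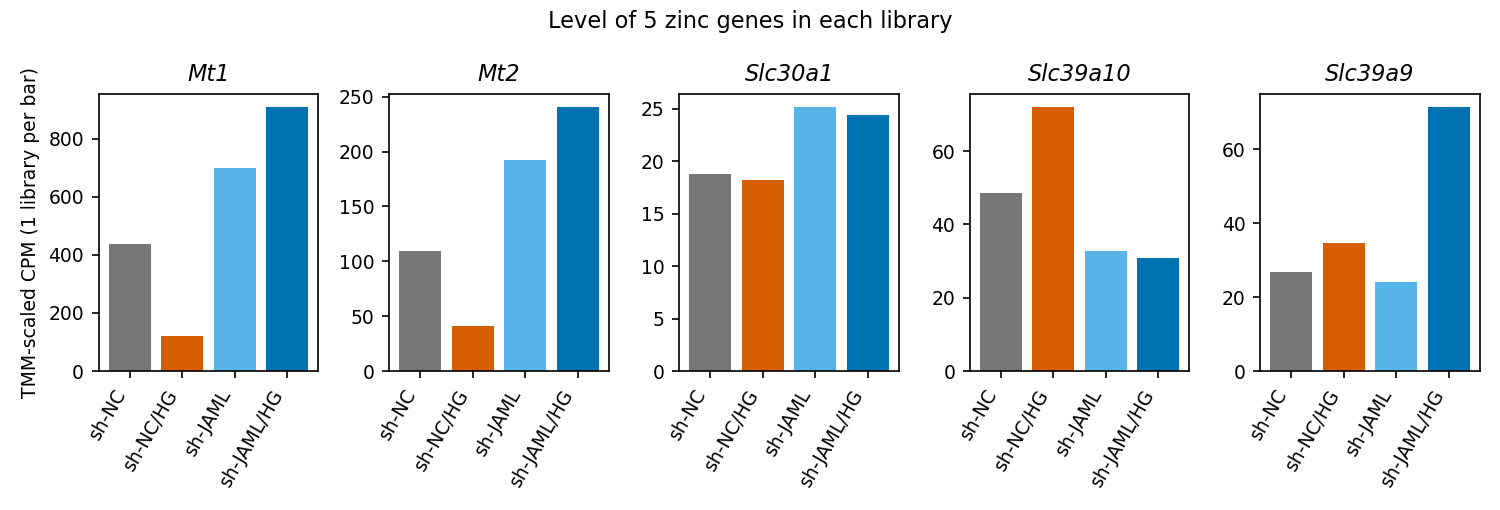
Bars give the TMM-scaled CPM of 5 zinc genes, with 1 library per bar and a linear axis from 0 in each panel. Mt1 and Mt2 were lowest in sh-NC/HG, Slc30a1 was higher and Slc39a10 lower in both sh-JAML libraries, and Slc39a9 stood apart in sh-JAML/HG at 71.5 CPM.

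Together Mt1 and Mt2 made up 0.0540% of all counts with sh-NC, 0.0159% with sh-NC/HG, 0.0900% with sh-JAML and 0.116% with sh-JAML/HG. Ranked by CPM among all genes, Mt1 was number 309 with sh-NC, 2161 with sh-NC/HG, 108 with sh-JAML and 63 with sh-JAML/HG. The ratio of Mt1 to Mt2 in CPM was 4.02, 2.90, 3.62 and 3.78 in the order sh-NC, sh-NC/HG, sh-JAML, sh-JAML/HG. Mt2 shares 73.5% of its exon bases with Gm45774, an antisense gene on the other strand, and the strand handling of the counting is not given in the sources used here. Gm45774 had 1815, 820, 3076 and 4588 counts in that order, so reads of the pair cannot be told apart, while Mt1 shares no exon base with another gene. Mt3, the metallothionein known from brain, had 5, 0, 9 and 0 counts, under the floor of 12 counts, or 3 sequenced fragments.

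Other genes differed in the sh-NC/HG library along with the metallothioneins. All 13 mitochondrially encoded genes of a list kept for RNA quality and poly(A) selection were lower in sh-NC/HG against sh-NC. Their median log2 ratio was -0.74, where that of all genes was 0.00, and 5 were at least 2-fold lower (3.27% of all genes). In sh-JAML/HG against sh-NC/HG, 7 were at least 2-fold higher (2.81% of all genes). Their summed level was 13440 CPM in sh-NC/HG against 19810 to 21240 CPM in the other libraries. Of 12 listed IL-6 and acute phase genes, a group listed because IL-6 is a known inducer of metallothioneins, 10 passed the minimum, all 10 had a ratio above 1 in sh-NC/HG against sh-NC and 5 were at least 2-fold higher (4.65% of all genes), with a median log2 ratio of 1.27. Their summed level was 1458 CPM in sh-NC/HG and 686 to 1036 CPM elsewhere. The part of these differences in the metallothionein values was not tested.

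Mtf1 ordered the libraries differently from Mt1 and Mt2. It stood at 19.9 CPM with sh-NC, 28.0 with sh-NC/HG, 28.4 with sh-JAML and 25.7 with sh-JAML/HG, so sh-NC was the lowest library. It was 1.41-fold higher in sh-NC/HG against sh-NC (1.24 to 1.59) and 1.43-fold higher in sh-JAML against sh-NC (1.25 to 1.63). Between the 2 high-glucose libraries, where Mt1 differed most, the Mtf1 ratio was 0.919 (0.820 to 1.03). Mtf1 shares 8.1% of its exon bases with 1110065P20Rik.

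Among the zinc exporters, 6 of 10 Slc30a genes passed the minimum and 0 were at least 2-fold apart in any pair. Slc30a1, the plasma membrane exporter on chromosome 1 (191906767 to 191913247), stood at 18.8 CPM with sh-NC, 18.2 with sh-NC/HG, 25.2 with sh-JAML and 24.4 with sh-JAML/HG. It was 1.34-fold higher with the Jaml hairpin both without glucose (1.17 to 1.54) and with glucose (1.18 to 1.53). Its glucose ratios were 0.970 (0.841 to 1.12) and 0.968 (0.854 to 1.10), intervals that include 1. The mitochondrial transporter gene Slc30a9 stood at 68.5, 73.9, 72.9 and 70.7 CPM. The vesicle transporter gene Slc30a4 stood at 70.2, 71.2, 68.4 and 64.1 CPM. Both were nearly level.

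Slc30a5, Slc30a6 and Slc30a7 encode the transporters that load zinc into enzymes of the secretory pathway. Slc30a5 stood at 61.2, 50.3, 58.6 and 58.0 CPM, lowest in sh-NC/HG. Slc30a6 stood at 23.4, 22.4, 18.3 and 21.6 CPM and Slc30a7 at 95.2, 92.3, 80.1 and 84.4 CPM, both lowest in sh-JAML. Slc30a6 was 1.28-fold lower in sh-JAML against sh-NC (1.11 to 1.47) and Slc30a7 1.19-fold lower (1.11 to 1.27). The other 4 exporter genes were at or near 0: Slc30a2, Slc30a3 and Slc30a8 had 0 counts in every library, and the manganese exporter gene Slc30a10 had 7 counts in sh-NC and 0 elsewhere. A count of 0 allowed between 0.129 and 0.151 CPM, depending on the library.

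Of the 14 Slc39a importer genes, 9 passed the minimum, and Slc39a9 and Slc39a10 were the ones at least 2-fold apart in some pair. Slc39a10, a plasma membrane importer gene on chromosome 1 (46807544 to 46892852), stood at 48.5 CPM with sh-NC, 72.1 with sh-NC/HG, 32.9 with sh-JAML and 30.7 with sh-JAML/HG. Its order was the reverse of that of Mt1, with sh-NC/HG highest and sh-JAML/HG lowest. Slc39a10 was 1.49-fold higher in sh-NC/HG against sh-NC (1.37 to 1.61), and its ratio in sh-JAML/HG against sh-JAML was 0.933 (0.836 to 1.04). With the Jaml hairpin it was 1.47-fold lower without glucose (1.33 to 1.63) and 2.35-fold lower with glucose (2.15 to 2.58).

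Slc39a9, which encodes the Golgi-associated transporter ZIP9 (chromosome 12, 80643883 to 80683342), stood at 26.9 CPM with sh-NC, 34.6 with sh-NC/HG, 24.2 with sh-JAML and 71.5 with sh-JAML/HG. Here 1 library, sh-JAML/HG, stood above the other 3. Slc39a9 was 2.96-fold higher in sh-JAML/HG than in sh-JAML (2.67 to 3.29) and 1.29-fold higher in sh-NC/HG against sh-NC (1.15 to 1.44). Between the high-glucose libraries it was 2.06-fold higher in sh-JAML/HG (1.90 to 2.25), and without glucose its ratio in sh-JAML against sh-NC was 0.898 (0.793 to 1.02). It shares 4.5% of its exon bases with Erh, whose log2 ratio in sh-JAML/HG against sh-JAML was -0.09.

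The other importers kept closer levels. Slc39a1, the most abundant importer gene per length in all 4 libraries, stood at 234, 266, 209.8 and 223 CPM. Slc39a3, which encodes a related plasma membrane importer, stood at 25.5, 26.6, 28.1 and 28.5 CPM. Slc39a11 stood at 21.4, 25.9, 20.7 and 21.3 CPM and, like Slc39a1, was highest in sh-NC/HG. Slc39a6, a plasma membrane importer gene, stood at 122, 98.4, 113 and 111 CPM. The zinc and iron importer gene Slc39a14 stood at 61.0, 46.7, 59.6 and 56.7 CPM, and the secretory pathway gene Slc39a13 at 85.8, 69.4, 77.7 and 69.0 CPM. In sh-NC/HG against sh-NC, Slc39a14 was 1.30-fold lower (1.20 to 1.42), Slc39a6 1.24-fold lower (1.17 to 1.31) and Slc39a13 1.24-fold lower (1.15 to 1.32).

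Slc39a7, the endoplasmic reticulum zinc release channel gene, stood at 92.9, 81.1, 75.3 and 76.6 CPM, highest in sh-NC. It shares 80.7% of its exon bases with Gm20427, which had 368, 1031, 1422 and 1404 counts in the order sh-NC, sh-NC/HG, sh-JAML, sh-JAML/HG, so the assignment between them is uncertain. Under the minimum, Slc39a2 had 43, 20, 36 and 20 counts and Slc39a4, the intestinal importer gene, 19, 61, 19 and 10 in that order. Slc39a5 had 0, 0, 3 and 38 counts, Slc39a8 had 0, 8, 9 and 6, and Slc39a12 had 5 in sh-NC and 0 elsewhere. Slc39a2 was over the floor of 12 counts in all 4 libraries, Slc39a4 in all but sh-JAML/HG, Slc39a5 in sh-JAML/HG alone, and Slc39a8 and Slc39a12 in none.

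**Figure D2:**
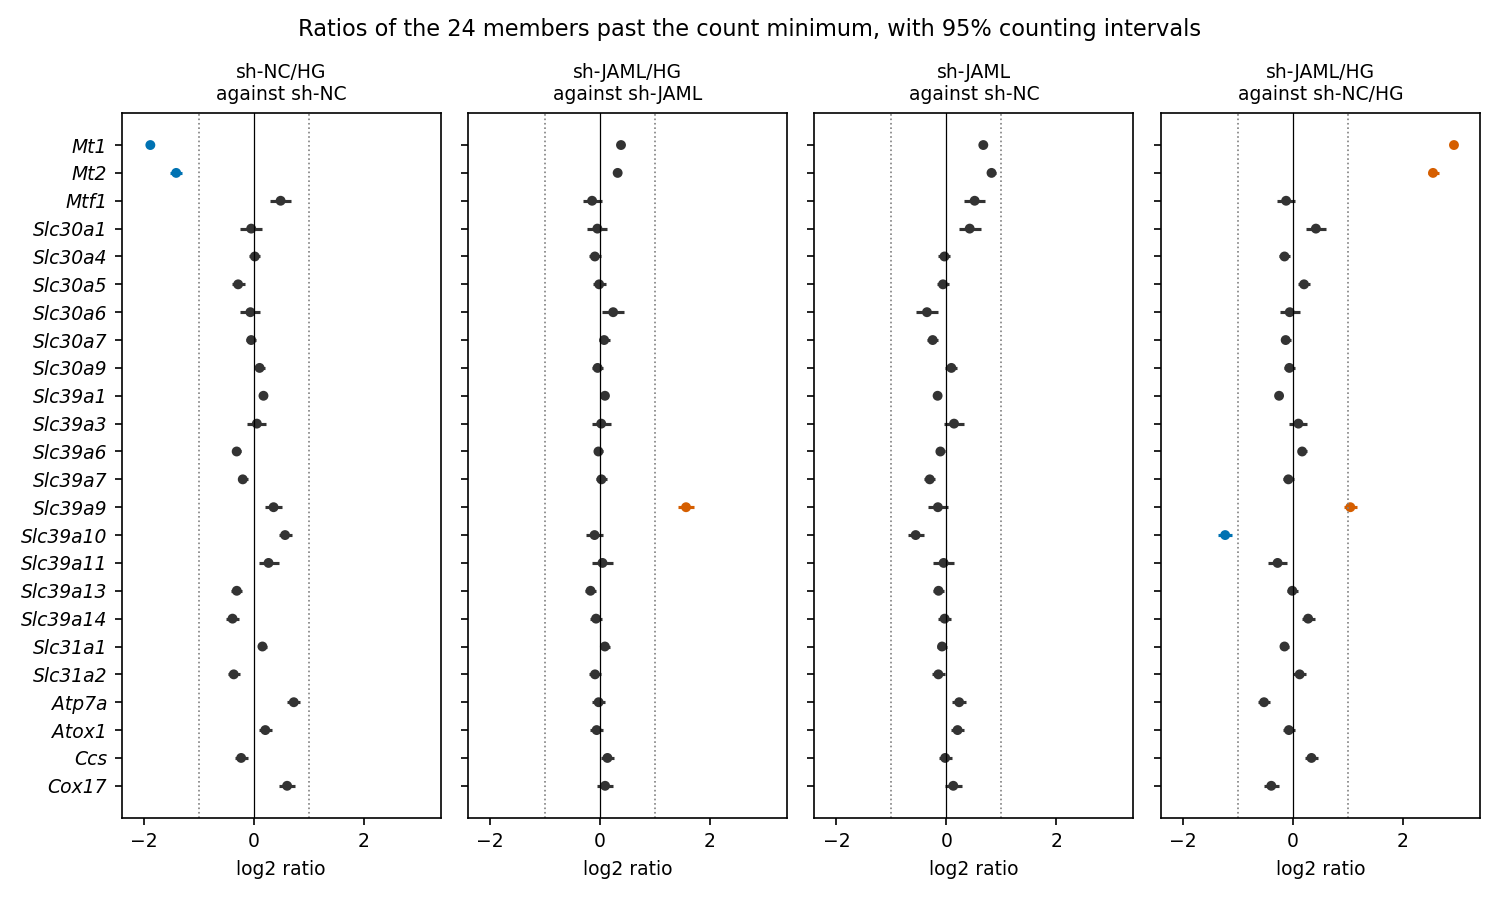
Points are log2 ratios of the 24 members in the 4 pairs of libraries, lines are exact 95% counting intervals, dotted lines mark 2-fold, and orange and blue mark members at least 2-fold higher and lower. Mt1 and Mt2 lie at -1.88 and -1.41 in the first panel and at 2.93 and 2.55 in the last, while most other members lie within 1.25-fold.

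Copper genes differed less than the metallothioneins, and 0 of the 6 that passed the minimum were at least 2-fold apart in any pair. Atp7a, which encodes the copper pump lost in Menkes disease (chromosome X, 106027276 to 106124926), stood at 46.2 CPM with sh-NC, 76.6 with sh-NC/HG, 54.2 with sh-JAML and 53.3 with sh-JAML/HG. It was highest in sh-NC/HG, 1.66-fold above sh-NC (1.53 to 1.8), and its ratio in sh-JAML/HG against sh-JAML was 0.983 (0.904 to 1.07). Cox17, the gene of the mitochondrial copper chaperone, stood at 32.2, 49.1, 35.1 and 37.4 CPM in the order sh-NC, sh-NC/HG, sh-JAML, sh-JAML/HG. It too was highest in sh-NC/HG, 1.53-fold above sh-NC (1.38 to 1.68).

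The remaining copper genes each differed by less than 1.5-fold in every pair. The importer gene Slc31a1 stood at 108, 121, 102 and 109 CPM and its relative Slc31a2 at 68.5, 53.3, 61.9 and 58.1 CPM. The chaperone gene Atox1 stood at 49.8, 57.7, 57.3 and 54.9 CPM and Ccs at 57.2, 48.9, 56.4 and 61.9 CPM. Slc31a1 and Atox1 were highest, and Slc31a2 and Ccs lowest, in sh-NC/HG. Slc31a2 was 1.28-fold lower in sh-NC/HG against sh-NC (1.19 to 1.39) and Ccs 1.17-fold lower (1.08 to 1.27). Ccs was 1.26-fold higher in sh-JAML/HG than in sh-NC/HG (1.17 to 1.37). Atp7b, the pump gene of Wilson disease and mainly known from liver, had 12, 66, 56 and 39 counts in the order sh-NC, sh-NC/HG, sh-JAML, sh-JAML/HG, with sh-NC at the floor.

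Per length, Mt1 was the most abundant member in every library, at 799 CPM per kilobase of its principal transcript with sh-NC, 217 with sh-NC/HG, 1272 with sh-JAML and 1658 with sh-JAML/HG. Mt2 came next in sh-NC, sh-JAML and sh-JAML/HG, with 214, 377 and 471 CPM per kilobase. In sh-NC/HG it stood at 80.5 CPM per kilobase, below Slc39a1 (112) and Atox1 (107). At the low end, Mtf1 stood between 2.61 and 3.73 CPM per kilobase and Slc30a1 between 3.47 and 4.80. Which transcripts were used was not measured, so these levels hold for the principal transcript lengths.

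**Figure D3:**
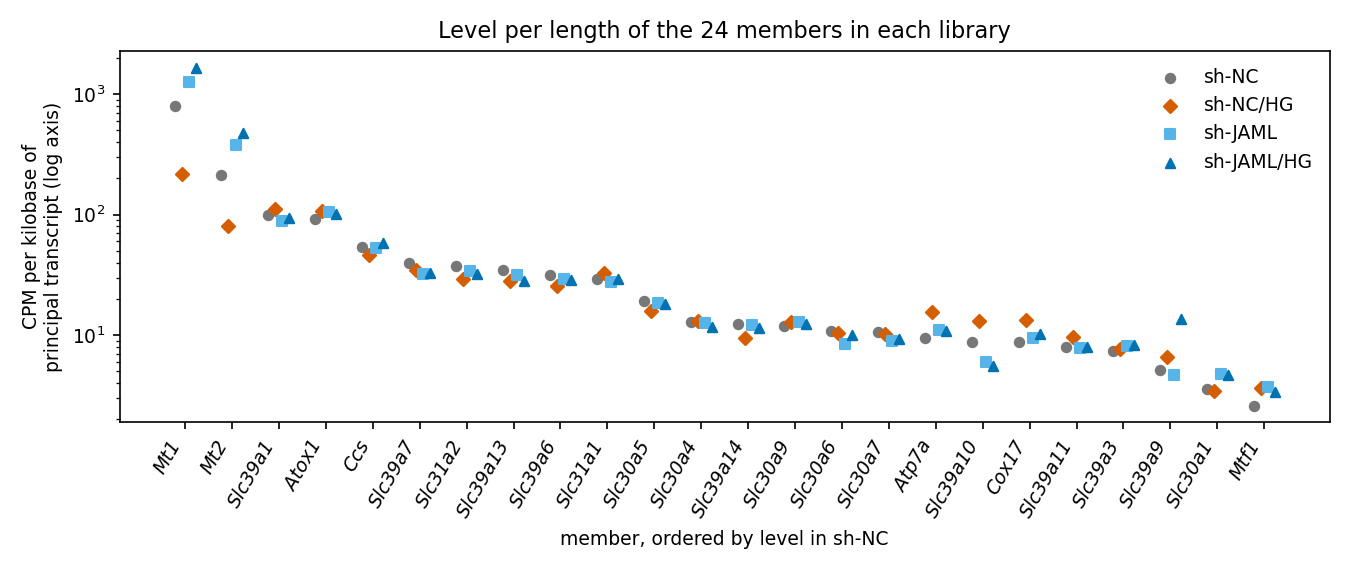
Each marker is 1 library, the axis is CPM per kilobase of principal transcript on a log scale, and members are ordered by their level in sh-NC. Mt1 and Mt2 spread over the widest range, and Slc39a9 has 1 library, sh-JAML/HG, at 13.7 above 4.64 to 6.66 in the others.

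Counted over the set, 2 of 24 members were at least 2-fold lower and 0 at least 2-fold higher in sh-NC/HG against sh-NC, where 3.27% and 4.65% of all genes were. In sh-JAML/HG against sh-JAML, 1 member was at least 2-fold higher (1.31% of all genes) and 0 lower (1.56%). Without glucose, 0 members were at least 2-fold apart between the hairpins (2.71% of all genes). At least 1.5-fold apart were 4 members in sh-NC/HG against sh-NC (19% of all genes) and 2 in sh-JAML against sh-NC (8.02%). In sh-JAML/HG against sh-NC/HG, 3 were at least 2-fold higher (2.81%) and 1 lower (4.78%). The member medians were -0.01, 0.00, -0.04 and -0.06 on the log2 scale in those pairs, and the medians of all genes were 0.00 in each, so the middle of the set lay level. Within 1.25-fold lay 15, 22, 18 and 16 of the 24, where 61.8%, 81.3%, 80.7% and 62.1% of all genes lay.

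Both sh-JAML libraries stood above both sh-NC libraries for 4 members, Mt1, Mt2, Slc30a1 and Slc39a3, a pattern of 17.6% of all genes. They stood below for 7, Slc30a4, Slc30a6, Slc30a7, Slc39a1, Slc39a7, Slc39a10 and Slc39a11, a pattern that also held for 17.6% of all genes. Both glucose libraries stood above both others for 3 members, Cox17, Slc31a1 and Slc39a9 (16.8% of all genes), and below for 5, Slc30a5, Slc31a2, Slc39a6, Slc39a13 and Slc39a14 (17.7%). These patterns take no account of counting error. The interval included 1 for Slc39a3 in both hairpin pairs, for Slc30a4 and Slc39a11 without glucose, and for Slc30a6 and Slc39a7 with glucose. In sh-JAML/HG against sh-JAML it included 1 for Cox17, Slc30a5, Slc31a2, Slc39a6 and Slc39a14.

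**Figure D4:**
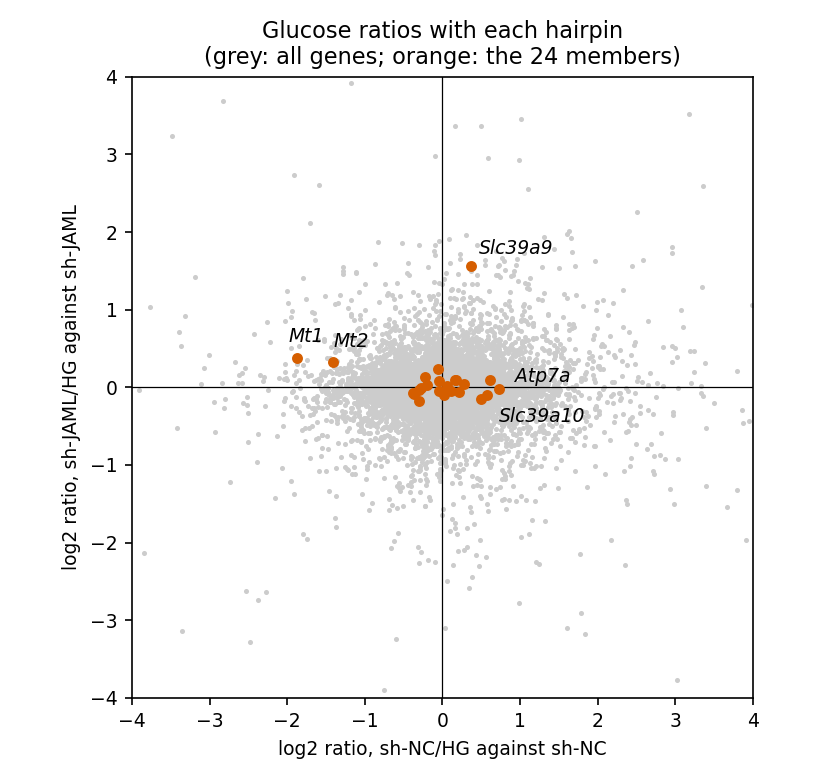
Each point is a gene, with its log2 glucose ratio with the control hairpin on the horizontal axis and with the Jaml hairpin on the vertical axis. The 24 members are orange and all other genes grey, and 76 genes lie outside the range of 4 shown. Mt1 and Mt2 lie low on the first axis and slightly above 0 on the second, and Slc39a9 lies at 1.56 on the second.

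A model that adds a hairpin term and a glucose term is the test that these 4 libraries allow. Its error for a gene starts from the disagreement between the 2 pairs and is moderated with that of all other genes. EdgeR's quasi-likelihood test called 0 of 24 members for glucose and 0 for hairpin after Benjamini-Hochberg adjustment over all genes, where it called 0.00705% of genes for glucose and 0% for hairpin. At an unadjusted p under 0.05 there was 1 member for glucose, Slc39a9, and there were 4 for hairpin, Mt1, Mt2, Slc30a1 and Slc39a10, beside 2.8% and 2.82% of all genes. Without the minimum count, Slc39a9 for glucose (unadjusted p = 0.0538, edgeR) and Mt1 for hairpin (unadjusted p = 0.055, edgeR) missed that threshold. DESeq2 also called 0 members for either term, beside 0.374% of all genes for glucose and 0.338% for hairpin, and limma-voom called 0 members and 0% of all genes. Unadjusted, DESeq2 had 1 member for glucose (3.87% of all genes) and 3 for hairpin (4.19%), and limma-voom 1 (3.07%) and 4 (3.22%). The fitted hairpin differences on the log2 scale were 1.8 for Mt1, 1.68 for Mt2, 0.42 for Slc30a1 and -0.90 for Slc39a10, each in the same direction in 2 of 2 pairs, with edgeR's adjusted p = 0.933 for each. The lowest adjusted p of a member was 0.0733, DESeq2's value for Slc39a10 and hairpin, where edgeR and limma-voom gave adjusted p between 0.865 and 0.937.

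Other metal genes were counted from lists. Of 13 further zinc-handling genes, 8 passed the minimum and 0 were at least 2-fold apart in any pair, with medians of -0.30, 0.08, -0.06 and 0.21 on the log2 scale in the order sh-NC/HG against sh-NC, sh-JAML/HG against sh-JAML, sh-JAML against sh-NC and sh-JAML/HG against sh-NC/HG. Of 22 further copper enzymes and chaperones, 16 passed, and 2 were at least 2-fold higher in sh-NC/HG against sh-NC (4.65% of all genes) with a median of 0.09. In sh-JAML/HG against sh-NC/HG, 3 were at least 2-fold lower (4.78% of all genes) with a median of -0.12, and 0 were at least 2-fold apart in the other pairs. The highest in sh-NC/HG was Xiap, an apoptosis inhibitor gene whose protein binds copper, at 26.0 CPM with sh-NC, 121 with sh-NC/HG, 40.3 with sh-JAML and 29.6 with sh-JAML/HG. Of 14 metal and oxidant stress genes past the minimum, 9 were lower and 5 higher in sh-NC/HG against sh-NC, with a median of -0.32. Gclc, which encodes the catalytic subunit of the first enzyme of glutathione synthesis and is a known MTF1 target, had the lowest ratio of them, at 196 CPM with sh-NC, 93.4 with sh-NC/HG, 214 with sh-JAML and 224 with sh-JAML/HG. Osgin1, an oxidative stress response gene of the same list, had the highest ratio there and went the other way, at 6.81, 17.2, 7.20 and 7.87 CPM.

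Of 10 glucocorticoid response genes past the minimum, a group listed because glucocorticoids are known inducers of metallothioneins, 4 were higher and 6 lower in sh-NC/HG against sh-NC, with a median of -0.20. Sgk1, a kinase gene of that list, stood at 26.4 CPM with sh-NC, 8.95 with sh-NC/HG, 19.7 with sh-JAML and 19.3 with sh-JAML/HG, and Cebpd, a transcription factor gene, at 9.43, 42.5, 6.88 and 6.38 CPM. The 2 went opposite ways in sh-NC/HG. Marker genes of other cell types were also read. Summed leukocyte markers stood between 57.8 and 68.2 CPM, endothelial markers between 19.8 and 34.0 CPM with Kdr and Tie1 at 0, tubule markers between 852 and 1335 CPM with Slc34a1 and Umod at 0, and mesangial markers between 892 and 1329 CPM with Itga8 and Ren1 at 0. As sums, endothelial and tubule markers were highest and mesangial markers lowest in sh-NC/HG. Only 5 mesangial markers passed the minimum, and 4 of them were lower with sh-NC/HG than with sh-NC. Des, the remaining one, went the other way, at 0.453 CPM with sh-NC, 2.32 with sh-NC/HG, 0.112 with sh-JAML and 0.201 with sh-JAML/HG. Its sh-JAML value lay under the floor of 0.150 CPM. Of the 9 endothelial markers 3 passed the minimum, all 3 with a ratio above 1 in sh-NC/HG against sh-NC, 2 of them at least 2-fold (4.65% of all genes), and the median log2 ratio was 1.44. Of the 8 leukocyte markers 3 passed, and 1 of them, Lyz2, was at least 2-fold lower in sh-JAML/HG against sh-JAML (1.56% of all genes). Lyz2 stood at 2.14 CPM with sh-NC, 3.03 with sh-NC/HG, 2.02 with sh-JAML and 0.059 with sh-JAML/HG, the last under that library's floor of 0.142 CPM. The markers' part in the member values was not tested.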

How the data were processed

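RNA of 4 libraries, 1 per group, was sequenced after the TruSeq RNA guide, per the labels' protocols. CASAVA 1.8 and TopHat2 2.0.6 with build mm10 are named, per the submitters' processing notes. The values the authors deposited are each an estimated count of 1 Ensembl gene, not scaled between libraries. Their counting tool, annotation and strand setting were not given in the sources used here. Columns ctr and HG name no hairpin and were taken by name as sh-NC and sh-NC/HG. Low values piled up at multiples of 4 (1.51 to 2.10 times the neighbouring even values), so 4 units were taken as 1 fragment for intervals and floors.

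Symbols, positions, shared exons and transcript lengths came from GENCODE M21 (GRCm38), which matched 55394 of 56393 genes, and promoters from RefSeq (GRCm38.p6). EdgeR 4.0.16 in R 4.3.3 gave TMM factors, log2 ratios with a prior count of 1 over genes averaging 50 counts or more, and an additive quasi-likelihood test, which leaves 1 degree of freedom, adjusted by Benjamini-Hochberg at 0.05. Limma 3.58.1 (voom) and DESeq2 1.42.0 were alternatives. Ratios carry exact 95% Clopper-Pearson intervals conditional on the summed fragments. Python 3.11.15, scipy 1.17.1 and matplotlib 3.10.9 did the rest. Members past the minimum are named with their levels, the others with their counts. From the other lists, the highest and lowest gene at least 2-fold apart in a pair could be named, and only some of these are given here. Members and lists were chosen with earlier results of these data known.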

Additional observations from a re-analysis of the deposited data

Results flagged for a closer look

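Members whose counting intervals lay on opposite sides of 1 in 2 pairs of the same contrast were singled out, and the differences were not tested, since each group has 1 library. For glucose there were 3. Mt1 had log2 ratios of -1.88 with the control hairpin and 0.38 with the Jaml hairpin, a difference of 2.26. Mt2 had -1.41 and 0.32, a difference of 1.73. Ccs had -0.23 and 0.14, a difference of 0.36. For the hairpin there were another 3. Atp7a had 0.23 without glucose and -0.52 with it, a difference of -0.76. Slc31a2 had -0.15 and 0.12, a difference of 0.27, and Slc39a6 had -0.11 and 0.17, a difference of 0.28. Each of the 6 differences uses all 4 libraries, sh-NC/HG, the one that stood apart most, among them. The share of all genes meeting this rule was not computed. By size of difference Mt1 ranked 281, Mt2 496, Atp7a 2273, Ccs 5450, Slc39a6 6890 and Slc31a2 7067 of 14187 genes. Over all genes the quartiles of the glucose difference were -0.28 and 0.26, and the hairpin difference of a gene is the same number. Slc39a6 and Slc31a2 thus ranked near the middle of all genes.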

How the results depend on the processing

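The 4 counts of members at least 2-fold apart (2, 1, 0 and 4) were the same with DESeq2's size factors (computed with edgeR), upper quartile factors, total counts only, a minimum mean count of 200 and a prior count of 5. Scaling without the sh-NC/HG library, chosen after seeing the data, left the counts of 1 and 0 in the pairs that do not hold it. Without a minimum, 32 members entered and the counts became 9 in sh-NC/HG against sh-NC, 5 in sh-JAML against sh-NC, 3 for the glucose pair of the Jaml hairpin and 6 in sh-JAML/HG against sh-NC/HG, where 28%, 25.7%, 25.4% and 26.5% of 28477 genes were that far apart, the additions all being members under a mean count of 50. When genes sharing 10% or more of their exon bases were left out, Mt2 among them, the count in sh-NC/HG against sh-NC was 1 and that in sh-JAML/HG against sh-NC/HG was 3. At 1.5-fold the count was 4 in sh-NC/HG against sh-NC and 2 in sh-JAML against sh-NC, where 19% and 8.02% of all genes were that far apart. All 384 values of single members under another scaling or prior stayed within their counting intervals, the largest shift being 0.04 on the log2 scale. With total counts only, Ccs, Slc30a4 and Slc39a14 in sh-JAML against sh-NC and Slc39a13 in sh-JAML/HG against sh-NC/HG changed sign near 0. For glucose, edgeR's additive test called 1 gene of all, DESeq2 53, limma-voom 0 and edgeR without a minimum 0. For hairpin edgeR called 0 and DESeq2 48. No member was among any of these calls, and the cause of the differences between tools was not tested. No paired analysis was possible because the labels give no replicate numbers, with 1 library per group. The additive test itself compares glucose within each hairpin and the hairpins within each glucose state.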
